A study of Mus musculus with 21 samples.

Results

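The 6 genes described here are Eomes, Neurog1, Neurog2, Insm1, Neurod1 and Neurod4, transcription factors of the step at which a forebrain stem cell turns into an intermediate progenitor and then a neuron. They were picked as a list of symbols, by a rule that uses no measured value although earlier results of these data were known, and all 6 were among the 24322 gene symbols of the deposited tables. The 21 libraries came from EGFP-positive cells sorted from C57BL/6 mice that all carry Nestin-EGFP, a reporter driven by regulatory sequence of the neural stem cell gene Nestin. The pregnant dams received oral methylcellulose (control) or valproic acid (VPA, an antiepileptic drug that also inhibits histone deacetylases) at 300 mg/kg/day on embryonic days 12, 13 and 14. Offspring were taken on embryonic day 15 (E15, forebrain), on postnatal day 5 (P5, hippocampal dentate gyrus) or at 12 weeks (dentate gyrus), with 3 control and 3 VPA libraries at each age. A further 3 libraries at 12 weeks came from VPA offspring with voluntary exercise (VPA+Run). No running group without VPA was analysed here, and each comparison below asks how prenatal VPA, running or age changed the level of these genes.

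In the embryonic cortex and in the dentate gyrus, the basic helix-loop-helix (bHLH) proteins Neurog1 and Neurog2 start the neuronal programme by pairing with E proteins and binding short DNA motifs called E-boxes. Notch signalling, through Hes proteins, holds that programme back in stem cells, as do Id proteins. Eomes (also called Tbr2) and the zinc finger protein Insm1 mark and generate intermediate progenitors, and Neurod1 and Neurod4 act later, as the progenitor becomes a neuron. In the dentate gyrus the order of Eomes and Neurod1 runs on into adult life, where Neurod1 is needed for new granule neurons.

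The values were FPKM (fragment counts scaled by transcript length and library size), and since they are given per length, levels of different genes can be set side by side. E15 libraries summed to 465610 to 506183 FPKM, those of P5 to 475775 to 492041 and the adult ones to 482753 to 574594. Replicates were less alike in adults: the median gene's SD on the log2 scale was 0.11 and 0.106 in the E15 groups, 0.089 and 0.088 at P5, and 0.305, 0.315 and 0.398 in the control, VPA and VPA+Run groups at 12 weeks. Nes, the gene whose sequence drives the reporter, was present in every group, with means of 10.14 to 17.42 FPKM. Sorted cells also held transcripts of other types. Choroid plexus genes summed to 11140 FPKM in VPA replicate 3 at E15 and to 11.3 to 154.9 in the other E15 libraries, and pericyte genes (5 listed) summed to 583.3 to 2055 FPKM in the adult libraries. Every adult library held both the Y-linked transcript Ddx3y (6.42 to 31.8 FPKM) and Xist, made from the inactive X chromosome (52.9 to 175), and so did VPA replicate 2 at P5 (19.1 and 20). The labels do not say whether replicates were separate litters or animals, so p-values measure the spread between these samples, which may be technical. In such bulk libraries, fewer cells of a type and less RNA per cell cannot be told apart.

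The genes lie on 5 chromosomes of the GRCm38 assembly, as annotated by GENCODE. Eomes is on chromosome 9 (118478212 to 118486132, plus strand), Neurog2 on chromosome 3 (127633135 to 127635631, plus strand), Neurog1 on chromosome 13 (56250478 to 56252163, minus strand) and Neurod4 on chromosome 10 (130268152 to 130280240, minus strand). Insm1 (146221921 to 146225020, plus strand) and Neurod1 (79452521 to 79456751, minus strand) are both on chromosome 2. Each value is for the whole gene, not for an exon. Neurod1 overlaps Cerkl, a gene on the same strand with a median of 1.17 FPKM and at most 10.1, and also Gm26755, a long noncoding RNA on the opposite strand, and Eomes overlaps the antisense gene Gm33460. The strand used in counting is not given in the sources used here, so reads from overlapping genes cannot be told apart.

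Upstream sequences are shown for Neurog2 and Neurod1, which lay on opposite sides of the controls in VPA libraries at P5, and for Eomes, the member with the steadiest control level across ages. They are RefSeq promoter windows of GRCm38.p6, cut to end before the annotated start of the gene, and 5 of the 6 members had a window. Capitals mark TATAA, the core of a TATA box, and CANNTG, the E-box that bHLH proteins bind, both searched on either strand.
Neurog2, chr3:127632886-127633134, plus strand: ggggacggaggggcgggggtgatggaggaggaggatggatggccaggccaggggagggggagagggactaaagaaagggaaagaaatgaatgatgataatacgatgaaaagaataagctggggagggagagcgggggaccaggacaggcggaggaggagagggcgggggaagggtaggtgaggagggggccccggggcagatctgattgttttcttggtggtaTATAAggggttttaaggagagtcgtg
Eomes, chr9:118477939-118478188, plus strand: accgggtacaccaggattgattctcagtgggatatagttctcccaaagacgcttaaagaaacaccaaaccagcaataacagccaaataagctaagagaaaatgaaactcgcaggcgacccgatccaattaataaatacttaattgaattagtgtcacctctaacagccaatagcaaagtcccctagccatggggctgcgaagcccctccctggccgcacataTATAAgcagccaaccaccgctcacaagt
Neurod1, chr2:79456752-79456886, minus strand: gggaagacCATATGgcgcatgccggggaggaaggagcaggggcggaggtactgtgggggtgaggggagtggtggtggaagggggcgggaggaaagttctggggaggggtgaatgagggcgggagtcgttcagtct
TATAA lay 27 bases before the RefSeq start in Neurog2 and 28 before it in Eomes, whose GENCODE start lies further downstream. The windows of Neurod4 and Neurog1 held no TATAA and no CANNTG. Among 32851 RefSeq windows, 2.97% held TATAA on the gene's strand 35 to 20 bases before the start, and 22.8% held it anywhere on either strand. The Neurod1 window held TATAA 29 bases before its RefSeq start, in the stretch not printed, and a CANNTG match, CATATG, 242 bases before that start. CANNTG was present in 66.2% of all windows. These matches describe letters only, since no binding was measured.

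From E15 to P5 control cells came to hold less Neurog2, Neurog1 and Insm1 and more Neurod1 and Neurod4, while the difference in Eomes was small beside its error. Of the 6 genes, 5 passed the test between E15 and P5 (limma, adjusted p under 0.05), 3 lower and 2 higher, where 20.7% of all 14662 tested genes passed, 6.33% lower and 14.4% higher. That share depends on the fit, which takes in the more variable adult libraries. With only the groups compared, 8033 of 13189 genes passed, so most genes differed, and the same 5 members passed. Neurog1, among the lower ones, was abundant enough to be tested only through its E15 libraries. Age and tissue cannot be told apart here, because E15 cells came from whole forebrain and later cells from dentate gyrus.

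Neurog2, which starts the neuronal programme in cortical progenitors, was at 84.5, 93.0 and 83.7 FPKM in the E15 controls, at 44.2, 38.9 and 38.2 at P5 and at 25.8, 48.3 and 35.9 at 12 weeks. Every E15 control lay above every later control, and for 66.5% of genes the E15 and P5 controls did not overlap. From E15 to P5 it fell by 1.09 on the log2 scale (SE 0.233, limma adjusted p = 0.00219). Its relative Neurog1 was far less abundant, at 2.47, 2.95 and 3.56 FPKM at E15 and 0.380, 0.702 and 0.462 at P5, and fell by 1.39 (SE 0.356, adjusted p = 0.00827). Neurog1 reached 1 FPKM in every E15 library but in no P5 library. Its entry into the test thus rested on the age at which it was high. With a pseudocount of 0.1 in place of 1 the Neurog1 change was -2.35 with an adjusted p of 0.0911. In adults Neurog1 was at 0.295, 1.44 and 0 FPKM in controls, at 0, 0.963 and 0 with VPA and at 0, 0.0491 and 0 with VPA+Run. It was thus listed at 0 in 5 of the 9 adult libraries, which listed fewer genes between 0 and 1 FPKM in all (517 to 1677 a library, against 3409 to 4565 at E15 and P5), and it was too low to be tested within P5 or within 12 weeks.

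Insm1, a zinc finger repressor needed to make basal progenitors, was at 108.8, 110.0 and 95.8 FPKM in the E15 controls, at 47.8, 40.5 and 41.9 at P5 and at 49.5, 50.004 and 54.3 at 12 weeks. It fell by 1.26 from E15 to P5 (SE 0.168, adjusted p = 2.27e-05). Eomes, the T-box factor of intermediate progenitors, was at 91.9, 107.1 and 91.4 FPKM at E15, at 88.7, 80.8 and 92.7 at P5 and at 104.6, 106.0 and 112.0 at 12 weeks. The E15 and P5 controls overlapped, and the P5 against E15 difference in Eomes was -0.14 (95% interval -0.61 to 0.33, adjusted p = 0.75).

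Neurod1, the bHLH factor of early granule neurons, was at 65.0, 81.4 and 68.4 FPKM in the E15 controls and at 304.6, 303.7 and 368.1 at P5. It rose by 2.17 (SE 0.205, adjusted p = 3.74e-07). At 12 weeks it was at 244.8, 240.7 and 290.0 FPKM, below every P5 control and above every E15 control. Neurod4 rose by 1.67 (SE 0.393, adjusted p = 0.00455), from 3.76, 4.65 and 3.67 FPKM at E15 to 16.2, 14.8 and 14.0 at P5. In adults it was uneven, at 21.2, 21.5 and 9.41.

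From P5 to 12 weeks in controls, none of the 6 genes passed (limma), where 12.6% of genes did, and none had an unadjusted p under 0.05, where 25.4% did. Eomes (0.30) and Insm1 (0.24) were higher at 12 weeks in all libraries and Neurod1 (-0.33) was lower in all, while for 37.5% of all genes the groups did not overlap. Median-of-ratios and quantile scaling changed the balance over all genes between E15 and P5. Of the genes that passed, 69.5% were higher at P5 on the deposited values, 58.1% after median-of-ratios scaling and 52.1% after quantile scaling. The median gene differed by 0.14, 0.05 and -0.06 in turn, and the direction and call of the 5 members held under both scalings.

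Markers of other cells differed between the ages as well, with tissue changing too from E15 to P5. Their part in these results was not tested. From E15 to P5 in controls, all 4 oligodendrocyte precursor genes rose, from sums of 2.75 to 6.09 FPKM to 160.0 to 197.2, and all 8 immediate early genes rose, from 48.9 to 77.2 to 1359 to 1598. Of the stem cell and radial glia genes 5 of 7 rose and of the pericyte genes 3 of 5, while 4 of 8 ventral GABAergic genes fell. From P5 to 12 weeks all 5 endothelial genes rose (sums of 2.36 to 5.07 FPKM, then 97.6 to 269.6), as did all 5 pericyte genes (85.0 to 100.9, then 898.9 to 2055) and all 4 oligodendrocyte precursor genes, and 4 of 5 Cajal-Retzius and 3 of 7 stem cell and radial glia genes fell.

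**Figure D1:**
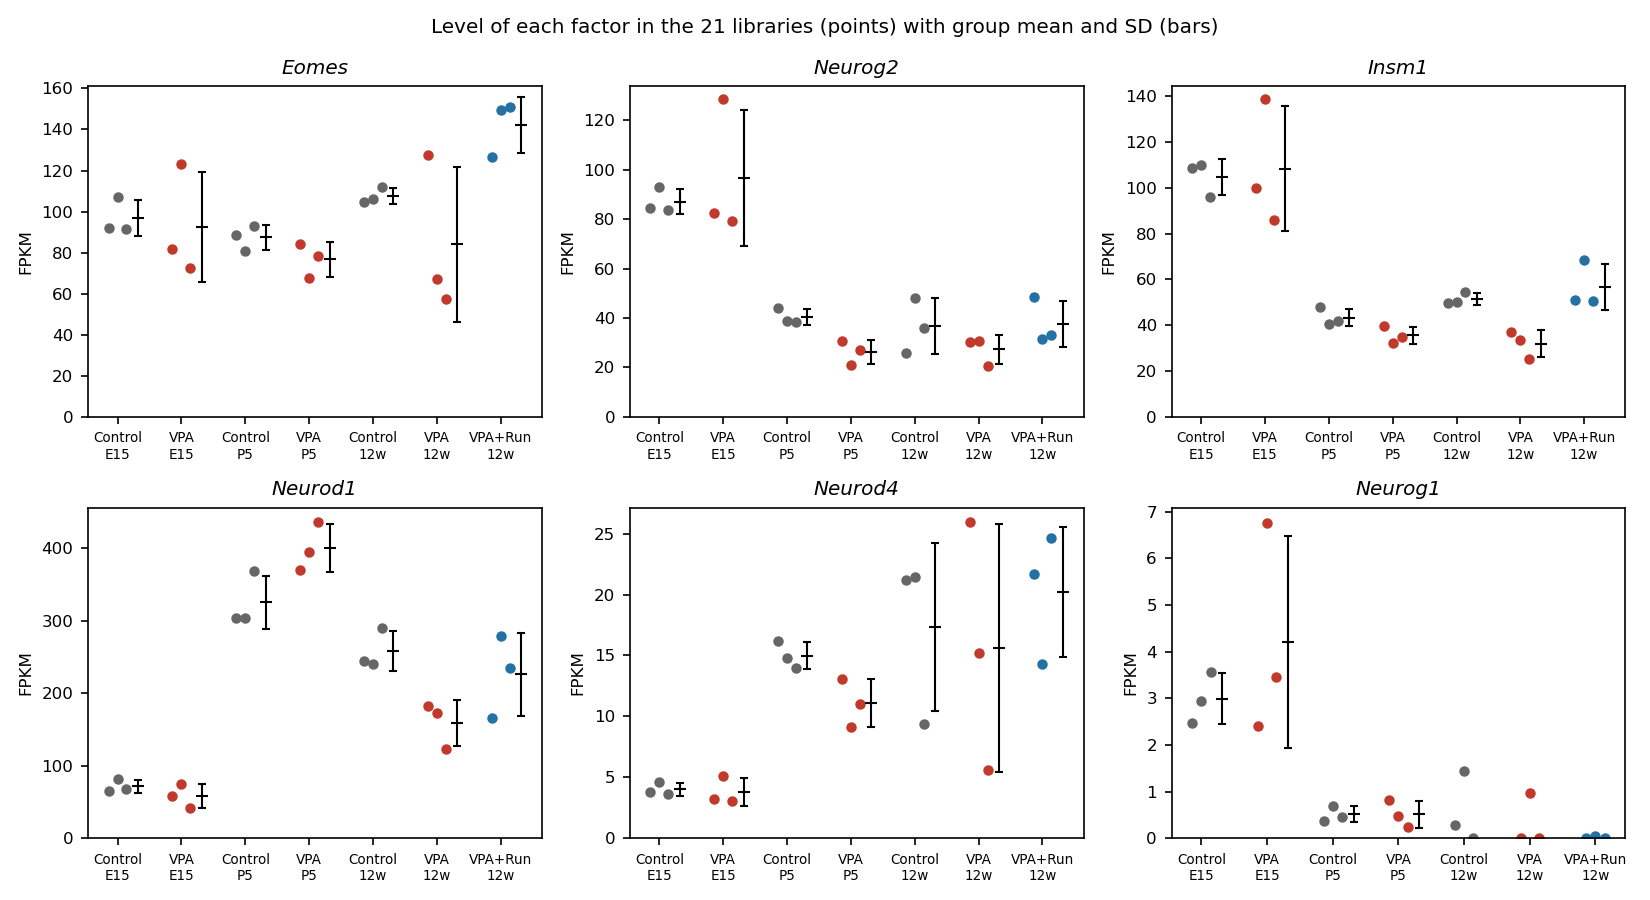
FPKM of each gene (vertical axes, from 0) in the 21 libraries (points, horizontal axis by group), with bars for the group mean and SD, left out where a library is listed at 0 (Neurog1 at 12 weeks). Neurog2 and Insm1 are highest at E15, Neurod1 is highest at P5 with 303.7 to 436.7 FPKM, and Eomes stays between 57.5 and 150.7 FPKM throughout.

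The genes that act around these factors also differed between E15 forebrain and P5 dentate gyrus, so age and tissue cannot be told apart. Of all tested genes 14.4% rose and 6.33% fell there. Of 7 upstream regulators 3 rose from E15 to P5, among them Emx2 by 2.25 and Sox2, a stem cell factor, by 1.44. Of 10 Notch and Id genes 6 rose and 1 fell; the Notch effector Hes5 rose by 3.39, Id1 by 3.38 and the receptor Notch1 by 1.75, and Id2 fell by 0.61, a call that was lost under 8 of 15 alternatives. Of the 3 E proteins, Tcf4 rose by 0.69. Among genes that proneural factors are known to activate, 6 of 15 tested rose and none fell, among them Btg2, an antiproliferative gene of neuron-producing divisions (2.09), Mfap4 (2.07) and the Notch ligand Dll3 (1.69). Of 12 later neuronal genes 2 rose and 8 fell. Those that rose were Prox1 (5.20), which specifies granule neurons, and Calb2 (5.13). Neurod6 (-3.34), Neurod2 (-2.66) and Tubb3 (-1.51) fell most clearly. The median member of the later neuronal list changed by -0.95 and that of the Notch and Id list by 1.32, against 0.14 for all genes.

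From P5 to 12 weeks in controls, fewer of these genes passed. Of the 15 proneural targets tested 1 rose, Elavl4 by 0.73, and 3 fell: Ebf3 by 1.42, Nhlh2 by 1.27 and Mfap4 by 0.99. Over all genes 12.6% passed. Ebf3 lay near the floor, at 1.14, 1.81 and 3.16 FPKM at P5 and 0.313, 0 and 0 at 12 weeks. Of the 12 later neuronal genes 3 fell, Neurod6 by 1.35, Bhlhe22 by 0.86 and Dcx by 0.55, and none rose. The E protein Tcf3 fell by 0.50. Of the 7 upstream regulators and the 10 Notch and Id genes none passed, while 1 and 3 of them were lower at an unadjusted p under 0.05. Mfap4, Neurod6 and Dcx kept their call under all 15 alternatives, and the other 5 lost it under 1 to 5 of their alternatives.

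At E15, a day after the last dose, none of the 6 genes passed between VPA and control (limma), in a comparison in which 0.0405% of 12345 genes did. None had an unadjusted p under 0.05, against 10.5% of genes, and the groups overlapped for all 6, against 17.5% of genes without overlap. Insm1 was at 99.96, 138.8 and 86.1 FPKM with VPA, around the control range, and Neurog2 was at 82.5, 128.5 and 79.4. VPA replicate 2 was the highest of the 6 E15 libraries in Neurog1 (6.75 FPKM), Neurog2, Insm1, Neurod4 (5.11) and Eomes (123.0), but not in Neurod1 (74.7). Eomes was at 81.6 and 72.5 FPKM in the other VPA libraries.

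The log2 differences at E15 had wide intervals: 0.12 for Neurog2 (-0.31 to 0.54), 0.02 for Insm1 (-0.38 to 0.42), -0.10 for Eomes (-0.55 to 0.35), -0.33 for Neurod1 (-0.80 to 0.15), -0.09 for Neurod4 (-0.52 to 0.34) and 0.30 for Neurog1 (-0.39 to 1.0). Neurod1 had the most negative difference, at 58.1, 74.7 and 41.9 FPKM with VPA. Without VPA replicate 3, the library with the choroid plexus transcripts, the difference was -0.11 for Neurod1, 0.05 for Eomes, 0.24 for Neurog2, 0.17 for Insm1, 0.02 for Neurod4 and 0.37 for Neurog1. Without VPA replicate 2 it was -0.52 for Neurod1, -0.32 for Eomes, -0.10 for Neurog2, -0.17 for Insm1, -0.28 for Neurod4 and -0.03 for Neurog1. Replicate 2 of both E15 groups lacked the Y-linked transcript Ddx3y (0.009 and 0.0119 FPKM, against 12.1 to 16 in the others). A model term for this could not change the 6 differences, because control and VPA were balanced in it. Genes of ventral GABAergic neurons (8 listed) summed to 124.5 to 300.8 FPKM in controls and 267.7 to 317.9 with VPA; their part in the result was not tested. None of the upstream, Notch and Id, E protein, proneural target or later neuronal genes passed at E15 (limma); at an unadjusted p under 0.05 stood 1 of 7, 0 of 10, 1 of 3, 4 of 15 and 3 of 12 of them, list by list.

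At P5 the VPA libraries held less Neurog2, Insm1 and Neurod4 and more Neurod1 than any control, but none of the 5 tested genes passed the test over all genes (limma). Of 13328 genes 2.24% passed. At an unadjusted p under 0.05 stood 4 of the 5, where 24% of genes did, and the same 4 had groups that did not overlap, where 29.4% of genes did.

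Neurog2 was at 30.5, 21.03 and 26.9 FPKM with VPA, below the 38.2 to 44.2 of the controls. Its log2 difference was -0.62 (SE 0.13, 95% interval -0.93 to -0.32), with an adjusted p of 0.0594 by limma. Insm1 was at 39.5, 32.3 and 34.9 FPKM with VPA and 40.5 to 47.8 in controls, so that the groups came close without overlapping (-0.28, adjusted p = 0.128). Neurod4 was at 13.1, 9.17 and 11.1 FPKM, below the 14.0 to 16.2 of the controls (-0.41, adjusted p = 0.108). Eomes was at 84.2, 67.7 and 78.3 FPKM and overlapped the controls (-0.19, adjusted p = 0.256). Neurog1 was at 0.826, 0.471 and 0.241 FPKM, on both sides of the controls.

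Neurod1 was the one member with higher values after VPA, at 370.7, 395.3 and 436.7 FPKM, against 303.7 to 368.1 in controls (0.30, SE 0.099, adjusted p = 0.129 by limma). The lowest VPA library stood close to the highest control. That control, replicate 3, was also the only P5 control with Ddx3y (22 FPKM), a transcript that all 3 VPA libraries held at 19.1 to 20.8 and that was at 0 and 0.0129 in the other controls. With a model term for the missing Y-linked transcripts, added after the data were seen, the difference was 0.12 for Neurod1 (adjusted p = 0.657), -0.55 for Neurog2 (0.363), -0.32 for Neurod4 (0.495), -0.23 for Insm1 (0.514) and -0.28 for Eomes (0.438), and the genes that passed over the whole table went from 298 to 10. With array quality weights Neurog2 (adjusted p = 0.0277), Neurod4 (0.0458) and Neurod1 (0.0469) passed, among 1213 of 13328 genes that did. Without VPA replicate 1 Neurog2 (0.0324) and Neurod4 (0.0453) passed, where 273 genes passed as higher and 270 as lower, of 13174.

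Other transcripts moved at P5 as well, and their part in these differences was not tested. All 8 immediate early genes fell, from sums of 1359 to 1598 FPKM in controls to 402.6 to 568.9 with VPA. Pericyte genes summed to 85.0 to 100.9 FPKM in controls and 132.8 to 245.9 with VPA (2 of 5 rose), fibroblast genes to 5.231 to 8.376 and 14.07 to 18.5 (2 of 5 rose), and Cajal-Retzius genes to 36.9 to 77.1 and 87.6 to 110.6, with no gene past the threshold. Erythroid genes summed to 726.9 to 1033 and 92.7 to 396.4 FPKM, with 2 of 4 fallen. Genes of dividing cells summed to 188.3 to 195.5 FPKM in controls and 142.2 to 177.4 with VPA, with 1 of 6 fallen, and of the 7 stem cell and radial glia genes, all with lower means after VPA, 1 fell.

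Among the surrounding genes at P5, 1 passed in each of 3 lists, all lower with VPA. Btg2 was at 40.6, 41.6 and 46.5 FPKM with VPA and at 87.3, 95.7 and 92.9 in controls and fell by 1.08 (SE 0.0657, adjusted p = 0.00152). That call held under all 16 alternatives, with adjusted p from 0.0016 to 0.0388. Btg2 is itself known as a rapidly induced gene, and it lay lower together with the 8 immediate early genes. A link between them was not tested. Hes1, a Notch effector that represses proneural genes, fell by 0.59 (adjusted p = 0.0394), and Sox2 by 0.36 (adjusted p = 0.0462). These were lost under 8 and 12 of the 16 alternatives. When single libraries were left out, their adjusted p ranged from 0.0453 to 0.131 for Hes1 and from 0.0372 to 0.153 for Sox2. Of the 10 Notch and Id genes 9, and of the 7 upstream regulators 6, had lower means with VPA, with list medians of -0.29 and -0.35 against 0.00 for all genes. The later neuronal list had a median of 0.14, with 9 of 12 higher and none past the threshold.

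**Figure D2:**
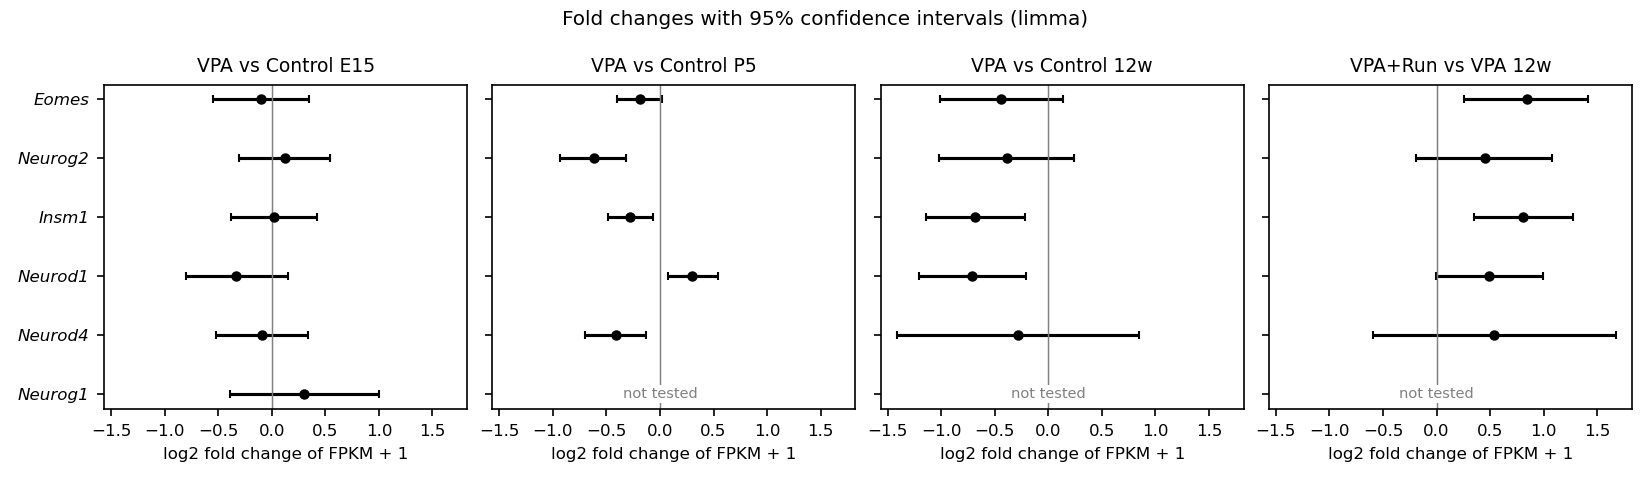
Log2 fold changes of FPKM + 1 (horizontal axes) with 95% confidence intervals from limma for each gene (rows) in 4 comparisons (panels). At P5 Neurog2, Insm1 and Neurod4 lie below 0 and Neurod1 above it; with VPA at 12 weeks all 5 tested genes have negative point estimates, and in VPA+Run against VPA all 5 have positive ones.

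The balance between an early and a late factor can be read within a library, as the ratio of Neurod1 to Neurog2. This ratio was chosen after the values were seen and is given as a description. At E15 it was 0.769 to 0.875 in controls and 0.528 to 0.705 with VPA. At P5 it was 6.90 to 9.63 in controls and 12.1 to 18.8 with VPA. VPA libraries thus stood below every control at E15 and above every control at P5. The P5 separation adds nothing new, since it follows from that of Neurod1 and Neurog2 given above. The highest P5 control ratio, 9.63, was that of replicate 3, the only P5 control with Ddx3y. How many pairs of genes separate in this way was not counted. At 12 weeks the ratio was 4.99 to 9.51 in controls, 5.60 to 6.02 with VPA and 3.41 to 8.83 with VPA+Run, and the groups overlapped. The ratio of Eomes to Neurog2 ran the same way, at 1.09 to 1.15 in controls and 0.914 to 0.989 with VPA at E15, and at 2.01 to 2.43 and 2.76 to 3.22 at P5. The ratio of Neurod1 to Eomes overlapped at E15 (0.707 to 0.76 in controls, 0.577 to 0.713 with VPA) and was higher with VPA at P5 (4.40 to 5.84 against 3.44 to 3.97). At 12 weeks it was 2.27 to 2.59 in controls, 1.43 to 2.57 with VPA and 1.31 to 1.87 with VPA+Run, so that VPA+Run lay below every control. The 3 ratios share their genes, so they are not separate evidence.

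**Figure D3:**
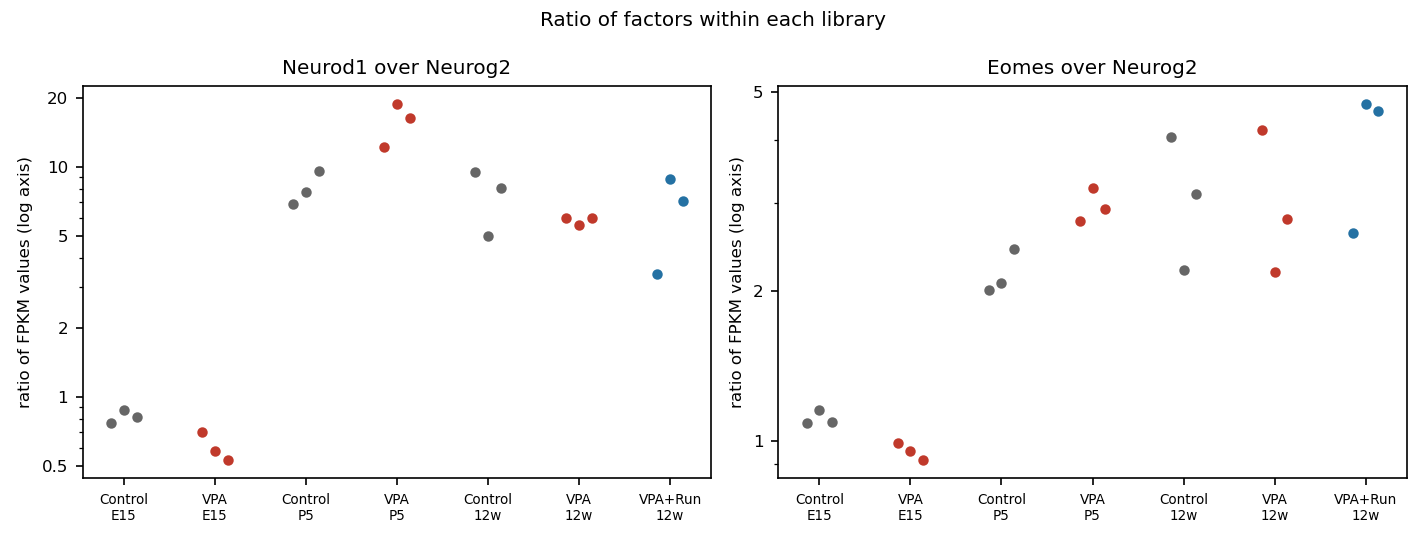
Ratio of FPKM values within each library (vertical log axes) by group (horizontal axis): Neurod1 over Neurog2 on the left and Eomes over Neurog2 on the right, 3 libraries a group. VPA libraries lie below the controls at E15 and above them at P5 in both panels, and the adult groups overlap.

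At 12 weeks the means of all 5 tested genes were lower with VPA than in controls, and the differences were largest for Neurod1 and Insm1. None passed over all genes, and in this comparison no gene of 13847 did (limma, 0%). At an unadjusted p under 0.05 stood 2 of the 5, where 6.39% of genes did. Those 2 were also the members whose groups did not overlap, where 15.5% of genes had none.

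Neurod1 was at 182.5, 172.7 and 123.5 FPKM with VPA and at 240.7 to 290.0 in controls (-0.71, SE 0.224, adjusted p = 0.577 by limma). Insm1 was at 37.0, 33.6 and 25.3 FPKM with VPA and at 49.5 to 54.3 in controls (-0.68, SE 0.206, adjusted p = 0.567 by limma). Every VPA library lay below every control in both genes. In a fit of all 21 libraries, which takes in the tighter E15 and P5 replicates, Insm1 passed (adjusted p = 0.0339), one of 533 genes that did.

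Eomes, at 127.3, 67.2 and 57.5 FPKM with VPA, was split between 1 library above and 2 below the controls (-0.44, 95% interval -1.01 to 0.14). Neurog2 was at 30.3, 30.9 and 20.7 (-0.39, interval -1.02 to 0.24), and Neurod4 at 26.0, 15.2 and 5.60 (-0.28, interval -1.41 to 0.85). The summed level of the 6 genes was 446.2, 467.9 and 501.6 FPKM in controls and 403.2, 320.6 and 232.5 with VPA. VPA replicate 3 was the lowest of the 9 adult libraries in Eomes, Neurog2, Insm1, Neurod1 and Neurod4. Without it the difference was -0.53 for both Neurod1 and Insm1, -0.21 for Eomes and 0.27 for Neurod4. Without VPA replicate 1, the library with high Eomes, the Eomes difference was -0.78.

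VPA+Run libraries were above VPA libraries in the mean of all 5 tested genes, most in Eomes and Insm1. None passed (limma), in a comparison in which 0% of genes did. At an unadjusted p under 0.05 stood 2 of 5, where 11.3% of genes did, and the groups did not overlap for Insm1 and Neurog2, where 15.5% of genes had no overlap. Eomes was at 126.7, 149.3 and 150.7 FPKM with VPA+Run (0.84, SE 0.259, adjusted p = 0.277 by limma), and VPA replicate 1, at 127.3, overlapped the lowest of these. Insm1 was at 51.1, 68.3 and 50.6 FPKM, above every VPA library (0.81, SE 0.206, adjusted p = 0.203 by limma). In the fit of all 21 libraries both passed, with adjusted p of 0.0234 and 0.00573, among 1698 genes that did.

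Neurog2 was at 48.5, 31.6 and 33.0 FPKM with VPA+Run, each above the highest VPA library at 30.9 (0.45, interval -0.19 to 1.08). Neurod1, at 165.5, 278.7 and 234.3, overlapped the VPA group through replicate 1 (0.49, interval -0.01 to 0.99). Neurod4, at 21.7, 14.3 and 24.6, overlapped it too (0.54, interval -0.59 to 1.67). Without VPA replicate 3 the difference of VPA+Run from VPA was 0.61 for Eomes, 0.65 for Insm1, 0.31 for Neurod1 and -0.01 for Neurod4, and without VPA replicate 1 it was 1.18 for Eomes. This comparison shares the VPA libraries with the one before it, so the opposite signs are not independent of each other.

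Against controls, VPA+Run libraries differed in no tested member (limma), where 0% of genes passed and 7.76% had an unadjusted p under 0.05, none of them members. Eomes was above every control (0.40, interval -0.18 to 0.97), and for 13.1% of genes these groups did not overlap. The other differences were 0.06 for Neurog2 (-0.58 to 0.69), 0.13 for Insm1 (-0.33 to 0.59), -0.22 for Neurod1 (-0.72 to 0.28) and 0.26 for Neurod4 (-0.87 to 1.39).

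None of the surrounding pathway genes passed in an adult comparison (limma). All 12 later neuronal genes had lower means with VPA than in controls, with a median of -0.46 against -0.01 for all genes, and 6 of them had an unadjusted p under 0.05. Of the 14 proneural targets tested 11 were lower, with a median of -0.35. In VPA+Run against VPA, 11 of the 12 later neuronal genes and 11 of the 14 targets were higher, with medians of 0.26 and 0.31 against -0.05 for all genes. At an unadjusted p under 0.05 stood 2 of those neuronal genes, both higher, and 2 targets, 1 in each direction. Against controls, 10 of the 12 neuronal genes and 10 of the 14 targets were lower with VPA+Run, with medians of -0.21 and -0.07 against -0.07 for all genes.

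Transcripts of other cells also differed between the adult groups, and their part in these results was not tested. Oligodendrocyte precursor genes (4 listed) summed to 403.1 to 628.3 FPKM in controls, 721.3 to 1197 with VPA and 369.6 to 461.0 with VPA+Run. Immediate early genes summed to 1543 to 2147, 2162 to 2403 and 1076 to 1584 FPKM in the same order. Genes of dividing cells summed to 125.2 to 198.8, 113.9 to 152.4 and 179.6 to 220.7 FPKM. Stem cell and radial glia genes summed to 753.9 to 1583, 718.6 to 836.7 and 1174 to 1630, pericyte genes to 898.9 to 2055, 628.0 to 914.9 and 583.3 to 1279, and endothelial genes to 97.6 to 269.6, 39.0 to 101.6 and 60.5 to 115.1. None of these genes passed in an adult comparison.

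**Figure D4:**
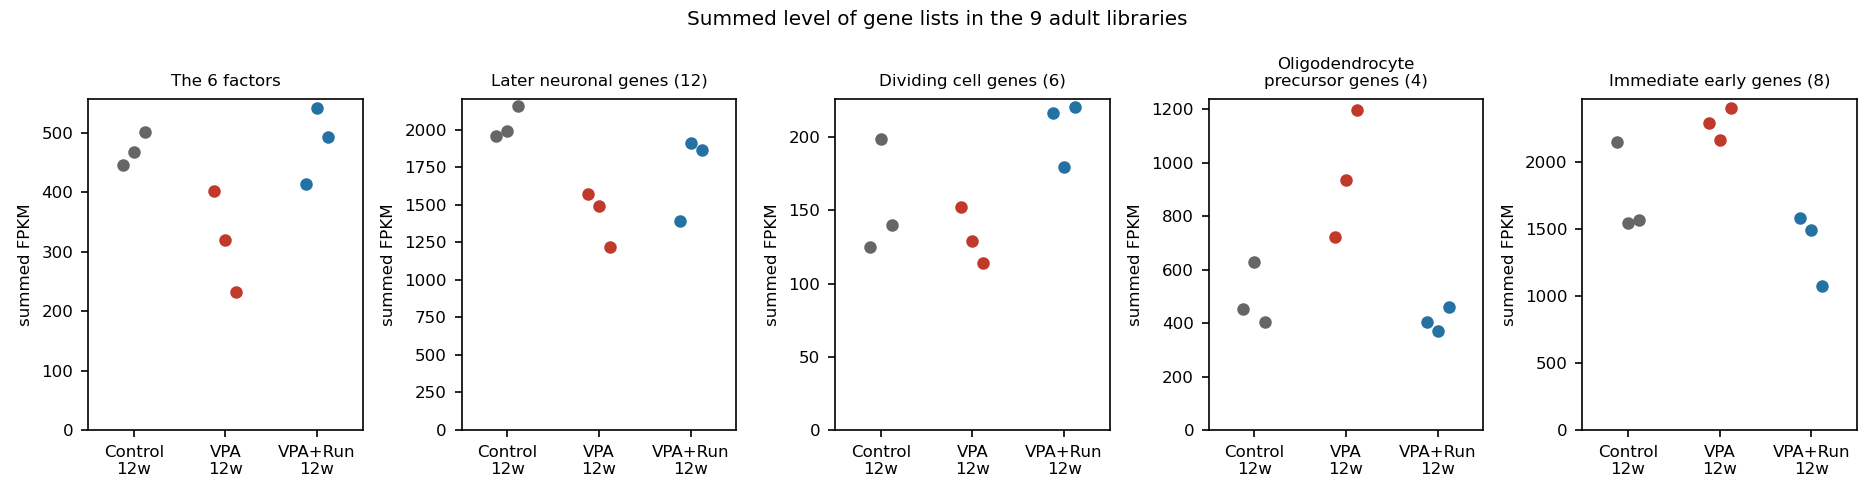
Summed FPKM (vertical axes, from 0) of the 6 genes, of later neuronal genes, and of genes of dividing cells, oligodendrocyte precursors and immediate early response in the 9 adult libraries (points, by group). VPA libraries lie below the controls in the panels of the 6 genes and of later neuronal genes (232.5 to 403.2 against 446.2 to 501.6 FPKM for the 6 genes) and above the other groups in the panels of oligodendrocyte precursor and immediate early genes.

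Whether the VPA effect differed between ages was tested as an interaction in the fit of all 21 libraries, and no member passed (limma). For P5 against E15 0.0955% of genes passed, for 12 weeks against P5 0.389% and for 12 weeks against E15 0.0818%. The lowest of the members' p-values belonged to Neurod1, with an effect lower at 12 weeks than at P5 by 1.01 (-1.01, SE 0.29, adjusted p = 0.163 by limma). Its effect at P5 was higher than at E15 by 0.63 (adjusted p = 1 by limma), and that of Neurog2 was lower, at -0.74 (adjusted p = 1 by limma). Insm1 had a lower effect at 12 weeks than at E15, at -0.70 (adjusted p = 0.357 by limma). These 4 values were the members' only interactions with an unadjusted p under 0.05, where 1.93%, 10.5% and 8.75% of genes had one in the 3 tests in the order above. With array quality weights the P5 against E15 difference passed for Neurog2 (-0.89), Insm1 (-0.51) and Neurod1 (0.52), among 2494 of 14662 genes that did. The fit of all 21 libraries shares a spread per gene over all groups, although adult replicates were less alike. It is therefore strict for P5 against E15. With only the groups compared, 51 genes passed as higher and 106 as lower there, of 13722, and again no member. For 12 weeks against P5 these were 38 and 37 of 14200, and against E15 9 and 3 of 14082.

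Among genes that proneural factors activate, the VPA effect on 2 differed between ages. Rnd2, a small GTP-binding protein of migrating neurons and a known direct target of Neurog2, was at 131.0, 151.5 and 150.05 FPKM with VPA at 12 weeks and at 252.6, 304.2 and 300.0 in controls. Every VPA library was below every control (-0.98, SE 0.201), yet with an adjusted p of 0.415 by limma it did not pass within the adults. With VPA+Run it was at 184.5, 310.0 and 267.3 FPKM. At P5 it was at 264.5, 268.2 and 268.2 with VPA and at 219.7 to 254.8 in controls, and the effect at 12 weeks was lower than at P5 by 1.18 (-1.18, SE 0.236, adjusted p = 0.0365) and than at E15 by 1.37 (-1.37, SE 0.236, adjusted p = 0.0368). Neurog2 itself had overlapping groups at 12 weeks. The effect on Btg2 was lower at P5 than at E15 (-1.53, SE 0.23, adjusted p = 0.00633) and higher at 12 weeks than at P5 (1.12, SE 0.23, adjusted p = 0.0394). The first of these was kept under all 21 alternatives, while the second was lost under 13 of them and the Rnd2 calls under 12 and 11.

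**Figure D5:**
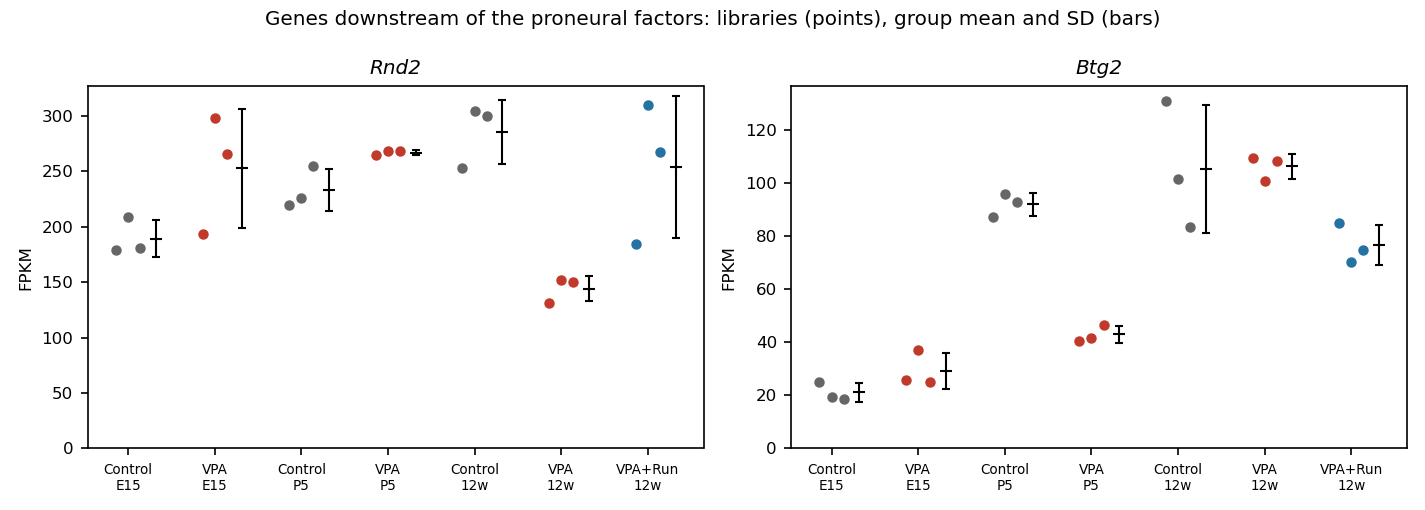
FPKM (vertical axes, from 0) of Rnd2 and Btg2, both listed as targets of proneural factors, in the 21 libraries (points), with group mean and SD (bars). Rnd2 is lowest in the 3 VPA libraries at 12 weeks (131.0 to 151.5 FPKM), and Btg2 at P5 is 40.6 to 46.5 FPKM with VPA against 87.3 to 95.7 in controls.

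Ordered by group mean, Eomes ran from 142.2 ± 13.5 FPKM (SD, n = 3) in VPA+Run at 12 weeks to 76.7 ± 8.41 in VPA at P5. The ranges of neighbouring groups overlapped except between VPA+Run and the adult controls at 107.5 ± 3.94. Neurog2 ran from 96.8 ± 27.5 in VPA at E15 to 26.2 ± 4.80 in VPA at P5, with the one break between neighbours after the E15 groups, from 87.1 ± 5.14 to 40.4 ± 3.24. Insm1 ran from 108.3 ± 27.3 in VPA at E15 to 31.99 ± 6.04 in VPA at 12 weeks. Its neighbours separated after the E15 groups and on both sides of the P5 controls, at 43.4 ± 3.90. Neurod1 ran from 400.9 ± 33.3 in VPA at P5 to 58.2 ± 16.4 in VPA at E15. In the middle of that order VPA+Run at 12 weeks, at 226.2 ± 57.0, overlapped both the adult controls at 258.5 ± 27.4 and the adult VPA group at 159.6 ± 31.6, which did not overlap each other. Neurod4 ran from 20.2 ± 5.35 in VPA+Run to 3.79 ± 1.15 in VPA at E15. Neighbours in that order separated only between the P5 groups, at 14.98 ± 1.10 and 11.1 ± 1.95, and between VPA at P5 and the E15 controls. Every adult library also lay above every E15 library in Neurod4, at 5.60 FPKM or more against at most 5.11. Set against all genes of the tables in controls, Neurod1 lay at percentile 94.7 at E15 and 99.4 at P5, Eomes at 96.4, 96.0 and 96.9 at E15, P5 and 12 weeks, and Neurog1 at 56.3, 41.6 and 41.4.

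The genes whose pattern was most like each member were found by the root mean square difference of centred log2 values over the 21 libraries, among 14662 genes. Neurog2 was closest to Insm1 (0.278), then to Mllt3 (0.297). Insm1 was closest to Mllt3 (0.225), Neurog2 and Phactr1 (0.293). Neurod1 was closest to Ttyh2 (0.293), Sema3c (0.309) and Prkch (0.312). Eomes was closest to Ccdc137 (0.224) and Mfap1a (0.226), and Neurod4 to Zhx3 (0.337), Crot (0.337) and Dpy19l4 (0.346). Eomes itself varied little, by a root mean square of 0.367 around its mean, against 1.015 for Neurod1. A small difference from Eomes therefore says less about a shared pattern. Neurog1, the lowest of the members, was closest to Ccbe1 (0.336), Cdh12 (0.38) and Pcdh8 (0.386). Neurog2 and Insm1 were the one pair of members among each other's 3 closest genes.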

How the data were processed

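Polyadenylated RNA of sorted Nestin-EGFP cells was sequenced by the authors. The submitters' processing notes name Bowtie2, Cuffdiff, Cufflinks, TopHat and mm10, with versions not given in the sources used here. Each deposited table gives 1 FPKM value per gene symbol. The 12-week file headers name FPKM, and for E15 and P5 this unit was inferred from the same genes, range and sums. No read counts were used, so absolute depth is unknown. Steps of low values gave relative depths of 0.966 to 1.404 (E15), 0.678 to 1.329 (P5) and, poorly defined, 0.563 to 2.114 (12 weeks).

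Values were analysed as log2(FPKM + 1), which understates changes of low genes, and fold changes are on that scale. Genes reaching 1 FPKM in 3 or more libraries of a fit were tested with limma 3.58.1 in R 4.3.3 (lmFit, eBayes with trend), with Benjamini-Hochberg adjustment over all tested genes and a threshold of 0.05. Fits held the 6 libraries of E15 or of P5, the 9 of 12 weeks, or all 21 for ages and interactions. The tests of VPA against control within an age were tried on simulated data with equal spread in all groups. The running, age and interaction comparisons were not simulated. The members and gene lists were chosen with earlier results of these data known. All members were named, with the 3 genes most like each and up to 3 passing genes per pathway list and direction (a few of these are not reported here), and marker sums where they moved beside a result; Rnd2 and Btg2 were named by that rule through the interactions. Unadjusted counts and marker lists are descriptions. Erythroid genes numbered 4 of 5 listed in the tables.

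Same-numbered E15 libraries deviated together (correlations 0.126, 0.115 and 0.228), which pairs them by the data; the P5 (0.094, 0.044 and 0.013) and 12-week numbers did not. Alternatives were a pseudocount of 0.1, no filter or a filter at 5 FPKM, 2 scalings, array weights, a replicate block, no trend, other sets of libraries in the fit, and leaving out each library. A term for missing Y-linked transcripts and leaving out running libraries were added after seeing the data.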

Additional observations from a re-analysis of the deposited data

Results flagged for a closer look

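The VPA effect on Btg2 differed between P5 and E15 by -1.53 on the log2 scale (limma interaction, adjusted p = 0.00633) and between 12 weeks and P5 by 1.12 (adjusted p = 0.0394). The effect on Rnd2 differed between 12 weeks and P5 by -1.18 (adjusted p = 0.0365) and between 12 weeks and E15 by -1.37 (adjusted p = 0.0368). These Rnd2 calls were lost under 12 and 11 of 21 alternatives and the second Btg2 call under 13, and Rnd2 did not pass within the adults (adjusted p = 0.415). At 12 weeks all 3 VPA libraries held less Rnd2 than all 3 controls, and at P5 all 3 held more.

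The ratio of Neurod1 to Neurog2 was lower in every VPA library than in every control at E15 and higher in every one at P5. The VPA effect on its mean log2 value was larger at P5 than at E15 by 1.39. The ratio of Eomes to Neurog2 did the same, by 0.67. Both ratios were chosen after the values were seen, and the difference was not tested. The P5 separation of the first ratio follows from that of Neurod1 and Neurog2 themselves.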

How the results depend on the processing

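Over 97 results and 1629 alternative values, 168 of the 173 counts of members called stayed at or near their first value. Array weights gave 3 members called at P5 and 3 for the VPA effect at P5 against E15, in place of 0. Over all genes 1213 and 2494 passed there, in turn. The fit of all 21 libraries gave 1 for VPA at 12 weeks and 2 for VPA+Run against VPA. With single libraries left out, the count at P5 was 0 to 2 (2 without VPA replicate 1). The cause was not tested. A sign changed in 31 settings of 19 results, with sizes of at most 0.36 and adjusted p of at least 0.647.

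With array weights the differences that turned were 0.02 for Eomes and 0.02 for Neurod4 (VPA at E15), 0.02 for Neurod4 (VPA at 12 weeks), -0.01 for Neurod4 (controls, 12 weeks against P5), and 0.25 and 0.02 for Neurog1 (VPA effect at 12 weeks against P5 and against E15). With quantile scaling Neurog1 in controls at 12 weeks against P5 was 0.24. With single libraries left out, VPA differences at E15 ranged from -0.32 to 0.05 for Eomes, -0.03 to 0.57 for Neurog1, -0.10 to 0.24 for Neurog2, -0.17 to 0.17 for Insm1 and -0.28 to 0.02 for Neurod4. Neurod4 ranged from -0.74 to 0.27 for VPA at 12 weeks, -0.01 to 1.0 for VPA+Run against VPA and -0.11 to 0.48 for VPA+Run against control, where Neurog2 ranged from -0.17 to 0.27 and Insm1 from -0.01 to 0.20. In controls at 12 weeks against P5, Neurog1 ranged from -0.41 to 0.24, Neurog2 from -0.40 to 0.04 and Neurod4 from -0.07 to 0.48. For the VPA effect at P5 against E15, Eomes ranged from -0.24 to 0.14 and Neurog1 from -0.58 to 0.01. At 12 weeks against P5, Neurog1 ranged from -0.54 to 0.15 and Neurod4 from -0.33 to 0.69. At 12 weeks against E15, Neurod4 ranged from -0.65 to 0.36. At a filter of 5 FPKM Neurog1 could not be tested, nor Neurod4 at E15.

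The replicate block changed no call of a member: with it 5 members passed between E15 and P5 in controls and 0 in each other comparison. It ended the calls of Sox2 (adjusted p = 0.0946) and Hes1 (0.0717) at P5 and of Btg2 at 12 weeks against P5 (0.0592). Over all genes, counts of calls ranged widely over the alternatives. For VPA at E15, 5 became 0 to 347. At P5, 298 became 2 higher and 13 lower in the fit of all 21 libraries, and 1213 with array weights. The term for missing Y-linked transcripts is left out of that range, since at P5 it rests on control replicate 3 alone. From 0, counts went up to 533 for VPA at 12 weeks, 1698 for VPA+Run against VPA and 886 for VPA+Run against control. In controls 3038 became 2271 to 10238 for P5 against E15 and 1848 became 1139 to 2288 for 12 weeks against P5. For the interactions 14 became 8 to 2494, 57 became 10 to 224 and 12 became 0 to 64. Depth is unknown, so it sets no stated limit.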
